A study of Mus musculus with 3 samples.

Results

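The genes described here are the receptors for colony-stimulating factors and for 3 macrophage-directed interleukins, with the ligand CSF1. They are Csf1r, Csf2ra, Csf2rb, Csf2rb2, Csf3r, Csf1, Il4ra, Il10ra, Il10rb and Il6ra, 10 of the 55536 annotated genes in the gene tables. They were chosen by name, but with earlier results of these data known, so comparisons of their levels with other genes are descriptive. Their RNA was measured in bone-marrow-derived macrophages (BMDM), primary cells grown from the marrow of C57BL/6J mice, a standard inbred strain. All 3 libraries form 1 group. Lipid A, the membrane anchor of bacterial lipopolysaccharide and the ligand of Toll-like receptor 4, was given at 100 ng/ml for 12 h and then removed for 12 h. A restimulation with 100 ng/ml for 20 min followed. Cytosolic RNA was depleted of ribosomal RNA and sequenced as total RNA, so the values are RNA levels outside the nucleus after all of these steps. No unstimulated or nuclear library was analysed here, and no change due to Lipid A can be read from the values.

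Although numbered as biological replicates 1, 2 and 3, the libraries all carry 1 donor identifier in the labels, so the spread between them may be partly technical. The age and sex of the mice were not collected, per the labels. Expected counts on annotated genes, the estimated reads per gene, came to 32055937, 43616634 and 47864978 in replicates 1, 2 and 3. Levels are given as TPM, a transcript abundance with a fixed sum per library, which divides counts by transcript length and so allows genes to be compared within a library. Protein-coding genes held 32.7%, 27.4% and 27.8% of all TPM in replicates 1, 2 and 3, and short RNAs took much of the rest, which sets the TPM scale of every gene named below. The smallest p that an exact sign-flip test over 3 libraries can give is 0.25, so no test over libraries was made.

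All 10 macrophage markers, among them Csf1r itself, reached 1 TPM in every library, with sums of 5654, 4836 and 5091 TPM. They were led by the lysozyme gene Lyz2, Adgre1 (F4/80) and Cd68 at 3120, 641 and 608 TPM on average. Of the markers of other blood and tissue cells, 3 of 11 neutrophil genes and 1 of 4 B-cell genes (Cd79b) reached 1 TPM in every library, and 0 of 7 dendritic-cell, 0 of 4 T- and NK-cell, 0 of 5 stromal and endothelial and 0 of 4 mast-cell and basophil genes did. In a bulk sample, few cells of a type and little RNA per cell cannot be told apart.

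Colony-stimulating factors drive the survival, growth and maturation of myeloid cells. CSF1 acts through a receptor tyrosine kinase, whereas GM-CSF, G-CSF and the interleukins act through receptors with no kinase of their own, which pair a ligand-binding chain with a shared signalling chain or with a copy of themselves and recruit JAK kinases and STAT factors. In macrophages, IL-10 is best known for restraining inflammatory genes, IL-4 for the alternative activation programme and CSF1 for survival.

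All 10 genes reached 1 TPM in every library, against 41.3% of protein-coding genes and 17.2% of all annotated genes. Their median level was 32.5 ± 3.76 TPM, against 8.46 ± 0.534 TPM for the 9092 protein-coding genes that reached 1 TPM in every library (mean ± SD, n = 3, as for all errors below). Csf1r and Il10rb stood highest, above 95.5% or more of those 9092 genes, and Il6ra stood lowest, at percentile 52.3.

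**Figure D1:**
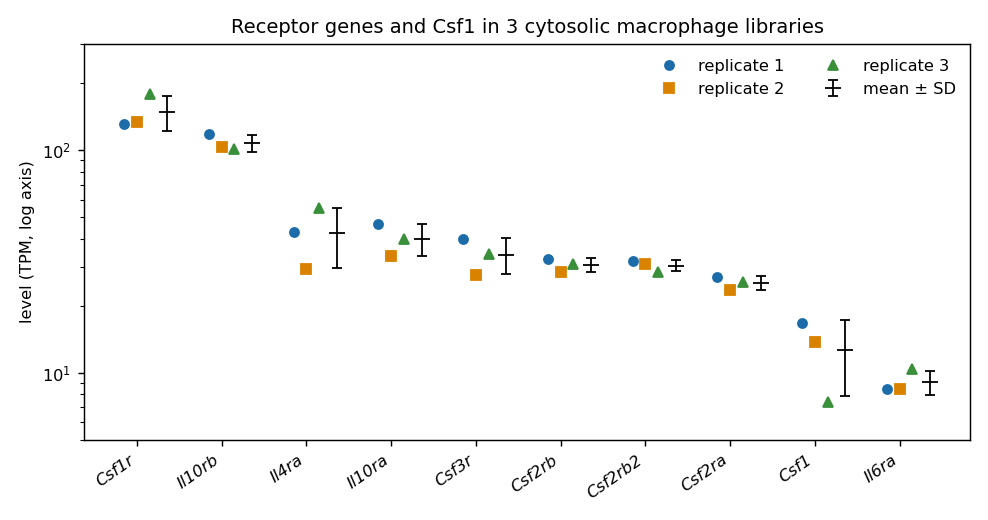
Level of each of the 10 genes in TPM on a log axis, ordered by mean, with 1 point per library and the mean with its SD over 3 libraries. Csf1r and Il10rb lie above 100 TPM in every library, the 6 genes from Il4ra to Csf2ra lie between 23.5 and 54.8 TPM, and Csf1 and Il6ra lie below 17 TPM.

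Csf1r encodes the CSF1 receptor, the growth and survival receptor of the macrophage lineage, on mm10 chromosome 18 (61100598 to 61132149, plus strand). It had 130.9, 134.3 and 178.7 TPM in replicates 1, 2 and 3, a mean of 148 ± 26.7 TPM, the highest of the 10 genes in every library. The high value of replicate 3 belongs to the TPM scale. In CPM, counts scaled to a common library total with TMM (edgeR's trimmed mean of M-values) and not divided by transcript length, Csf1r had 846.7, 979.4 and 950.5, and replicate 2 was highest. The effective length assigned to the gene was 4021 and 4025 nt in replicates 1 and 2 and 3095 nt in replicate 3, where more of the gene was assigned to a short transcript.

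Csf1 encodes the ligand of that receptor (chromosome 3, 107741048 to 107760469, minus strand). It had 16.7, 13.7 and 7.41 TPM, a mean of 12.6 ± 4.74 TPM, and replicate 3 was lowest on every scale used. On TMM-scaled CPM it had 89.3, 86.8 and 42.5, so the highest library was 2.10 times the lowest. The receptor exceeded its ligand in every library, by 7.84, 9.82 and 24.1 times on the TPM scale. Il34, the other known ligand of Csf1r, had 0 counts in all libraries, which allows up to 0.0778 TPM.

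Csf1 RNA is spliced into forms that differ in the middle of the protein. The long form of exon 6 codes for the stretch that carries the cleavage sites and the proteoglycan attachment site of secreted CSF1, and the short form leaves a ligand that is held longer on the cell surface. The bases at the junction of exons 5 and 6 show the choice: lower case is the end of exon 5, common to both, and capitals are the first bases of exon 6 (RNA strand, written as DNA, from the GENCODE M21 transcripts on mm10, minus strand; the coordinates span the intron).
Csf1-201, chr3:107749140-107750340: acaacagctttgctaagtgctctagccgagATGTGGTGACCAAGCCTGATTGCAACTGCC
Csf1-202, chr3:107748255-107750340: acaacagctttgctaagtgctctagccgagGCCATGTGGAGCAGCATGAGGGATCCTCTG
Exon 6 spans 1016 nt in Csf1-201 (107748154 to 107749169) and 131 nt in Csf1-202 (107748154 to 107748284). The difference is 885 nt, or 295 codons, and it leaves coding sequences of 552 and 257 codons. Transcripts with the long exon 6 held 71.5%, 77.9% and 80.7% of Csf1 in replicates 1, 2 and 3 (76.7 ± 4.69%), and those with the short exon 6 held 23.5%, 17.6% and 16.5% (19.2 ± 3.78%). The second quantification, the authors' other estimate of the same libraries, gave 85.0 ± 4.12% to the long form and 7.20 ± 2.33% to the short form. The long form led in every library of both estimates. Csf1-201 itself held 62.7%, 73.3% and 64.4%, Csf1-202 held 22.8%, 17.4% and 16.5%, and Csf1-203, another long form, held 8.82%, 4.59% and 16.3%.

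The receptors for GM-CSF and IL-3 share their signalling chain. Csf2ra, the GM-CSF-binding chain (chromosome 19, 61223957 to 61228429, minus strand), had 27.0, 23.5 and 25.6 TPM, a mean of 25.4 ± 1.76 TPM. Csf2rb, the common beta chain of the GM-CSF, IL-3 and IL-5 receptors (chromosome 15, 78325752 to 78353847, plus strand), had 32.5, 28.2 and 30.7 TPM, a mean of 30.5 ± 2.12 TPM. Csf2rb2, the mouse beta chain that serves IL-3 only (chromosome 15, 78282507 to 78305721, minus strand), had 31.7, 30.8 and 28.3 TPM, a mean of 30.2 ± 1.73 TPM. All 3 chains thus lay between 23.5 and 32.5 TPM in every library. Csf2rb stood 1.20 times above Csf2ra in each library, and 1.53, 1.81 and 1.28 times above it in the second quantification. Il3ra, the IL-3-binding chain, had 16.9, 15.9 and 18.6 TPM (17.1 ± 1.34), whereas Il5ra, the IL-5-binding chain, averaged 0.00333 TPM. Of the ligands, Csf2 (GM-CSF) had 4, 1 and 0 expected counts, and Il3 and Il5 had 0 counts in all libraries, which allows up to 0.151 and 0.046 TPM.

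Csf2rb and Csf2rb2 are neighbouring copies of one ancestral gene, on opposite strands, with gene starts 20031 nt apart. Their coding sequences were 95.2% identical over 2631 aligned bases, with one identical run of 242 nt, and 28.9% of the 31-base words of Csf2rb-201 also occur in Csf2rb2. Reads that fall in such stretches cannot be assigned to either gene, so the division between the pair is an estimate of the authors' programs. The aligned 60-base coding window with the most differing bases, in exon 4 of each gene, shows where reads can be told apart; capitals mark the 13 bases that differ (coding strand, GENCODE M21, mm10).
Csf2rb-201, chr15:78338893-78338952, plus strand: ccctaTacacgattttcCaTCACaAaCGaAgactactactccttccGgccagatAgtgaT
Csf2rb2-201, chr15:78294379-78294438, minus strand: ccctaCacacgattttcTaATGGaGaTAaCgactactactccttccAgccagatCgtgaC
Csf2rb2 was 0.975, 1.09 and 0.922 times Csf2rb in the first quantification (0.995 ± 0.085), so neither copy led in all libraries. In the second quantification it was 0.776 ± 0.0597 times Csf2rb, and Csf2rb was higher in every library.

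Csf3r encodes the G-CSF receptor, best known for its part in making neutrophils (chromosome 4, 126024550 to 126044440, plus strand). It had 39.98, 27.5 and 34.3 TPM, a mean of 33.9 ± 6.25 TPM, with replicate 2 lowest. Csf3, its ligand, had 1, 4 and 1 expected counts. The 11 neutrophil markers summed to 10.7, 13.1 and 18.9 TPM in replicates 1, 2 and 3, below Csf3r in each library. S100a9 made up much of that sum at 3.84, 5.56 and 9.97 TPM, and S100a8 and Mmp8 averaged 4.34 and 2.12 TPM. Ly6g and Retnlg, which define mature mouse neutrophils, had 0 counts in all libraries, and Cxcr2 was at 0.02 TPM or below. The marker sum was highest in replicate 3. Csf3r was highest in replicate 1 in TPM as deposited and by TMM-scaled CPM (174.8, 129.6 and 156.2). The same held in the second quantification over protein-coding genes (130.1, 95.6 and 122.7). Only with the first TPM taken over protein-coding genes was replicate 3 highest, narrowly (122.2, 100.5 and 123.6). Which cells the Csf3r RNA came from was not tested. Csf3r-201 shares 23.3% of its 31-base words with the processed pseudogene AC105061.2 on chromosome 19, which was listed at 0.01 TPM or below.

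Il4ra encodes the IL-4-binding chain, which pairs with the common gamma chain for IL-4 and with Il13ra1 for IL-4 and IL-13 (chromosome 7, 125552120 to 125579474, plus strand). It had 42.8, 29.2 and 54.8 TPM, a mean of 42.2 ± 12.8 TPM. On TMM-scaled CPM it had 288, 223 and 382, so replicate 3 was highest and replicate 2 lowest on both scales. Of its partners, Il2rg (the common gamma chain) had 171.5, 103.4 and 105.2 TPM, or 4.01, 3.54 and 1.92 times Il4ra, and Il13ra1 had 1.84, 1.98 and 1.22 TPM. Il4ra exceeded Il13ra1 by 23.2, 14.7 and 44.9 times. The decoy chain Il13ra2 had 0 counts, which allows up to 0.0358 TPM. Il4 had 5, 2 and 4 expected counts, and Il13 was at 0.01 TPM or below.

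Most of the 10 genes had 1 leading coding transcript, but Il4ra was divided between a coding transcript and one annotated for nonsense-mediated decay, the pathway that degrades RNAs with a premature stop. Il4ra-205 carries an added exon of 114 nt between exon 7 and the next exon of Il4ra-201 (125571934 to 125572047). The junction sequences show it: lower case is the end of the exon before it, common to both transcripts, and capitals are the bases that follow, of which TGA at the end of Il4ra-205 is the stop codon (plus strand, GENCODE M21, mm10; the coordinates span the intron).
Il4ra-205, chr7:125571561-125571953: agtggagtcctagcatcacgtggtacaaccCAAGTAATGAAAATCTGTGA
Il4ra-201, chr7:125571561-125572870: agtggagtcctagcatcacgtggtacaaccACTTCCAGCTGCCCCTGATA
The added exon ends the coding sequence after 17 further bases and leaves 230 codons, against 810 in Il4ra-201. A protein ending there would lack the membrane-spanning and cytoplasmic parts, and a soluble form of the IL-4 receptor made by an added exon is known in the mouse.

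Il4ra-205 held 47.4%, 49.5% and 60.3% of Il4ra in replicates 1, 2 and 3 (52.4 ± 6.94%), and Il4ra-201 held 50.1%, 49.6% and 38.8%. In the second quantification Il4ra-205 held more, 73.8%, 78.0% and 80.4% (77.4 ± 3.35%), against 21%, 20.2% and 18% for Il4ra-201. Replicate 3 had the largest share of Il4ra-205 in both. Among the 2825 genes with an annotated decay transcript, the Il4ra share stood at percentile 96.3, and the median was 2.36%. In expected counts Il4ra-205 had 3513, 4028 and 9541, against 5389, 5845 and 8903 for Il4ra-201, whose last exon runs 1507 nt further. Only 1.64% of the 31-base words of Il4ra-205 are absent from every other Il4ra transcript, against 32.3% for Il4ra-201, so few reads can belong to Il4ra-205 alone, and its share is an estimate of the authors' programs.

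**Figure D2:**
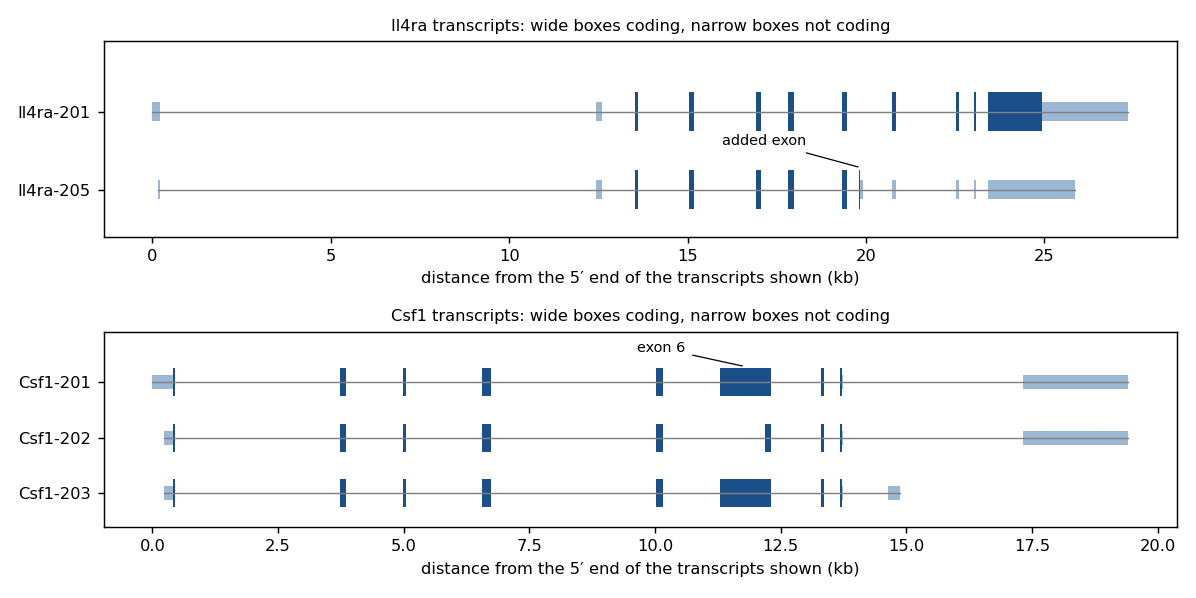
Exon maps of the Il4ra and Csf1 transcripts named in the text, drawn to scale in nt from the start of the gene in the direction of transcription, with coding parts as tall boxes and untranslated parts as low ones. Il4ra-205 has an added exon of 114 nt that ends its coding part early, and Csf1-202 has an exon 6 of 131 nt against 1016 nt in Csf1-201.

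Il10ra, the IL-10-binding chain (chromosome 9, 45253837 to 45269149, minus strand), had 46.4, 33.3 and 39.9 TPM, a mean of 39.9 ± 6.57 TPM. Il10rb, the second chain of the IL-10 receptor, which also serves IL-22 and the lambda interferons (chromosome 16, 91406164 to 91425834, plus strand), had 118.5, 103 and 101.2 TPM, a mean of 107.6 ± 9.49 TPM. The shared chain exceeded the IL-10-binding chain in every library, by 2.55, 3.09 and 2.54 times (2.73 ± 0.316), and by 2.88 ± 0.327 times in the second quantification. The chains with which Il10rb binds its other ligands were at or near 0: Il22ra1 had 0 counts, which allows up to 0.0256 TPM, and Ifnlr1 averaged 0.00333 TPM. Their ligands Il22 and Ifnl2 had 0 counts, which allows up to 0.0684 and 0.128 TPM. Il20rb, a chain of the IL-20-type receptors of the same family, had 0.48, 0.36 and 0.52 TPM. Il10 was the one ligand besides Csf1 at 1 TPM or more in every library, with 13.9, 4.83 and 8.11 TPM (8.94 ± 4.58). Il10rb-201 shares 29.8% of its 31-base words with Gm21970, an overlapping gene on the same strand that had 0 expected counts.

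Il6ra encodes the IL-6-binding chain, which signals through gp130, the product of Il6st (chromosome 3, 89864059 to 89913196, minus strand). It had 8.45, 8.44 and 10.4 TPM, a mean of 9.09 ± 1.12 TPM, the lowest mean of the 10 genes, although Csf1 was lower in replicate 3. Il6st exceeded it in every library, by 1.68, 1.80 and 1.25 times, at 14.2, 15.2 and 13.0 TPM. Il6 had 1.35, 0.44 and 0.15 TPM.

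**Figure D3:**
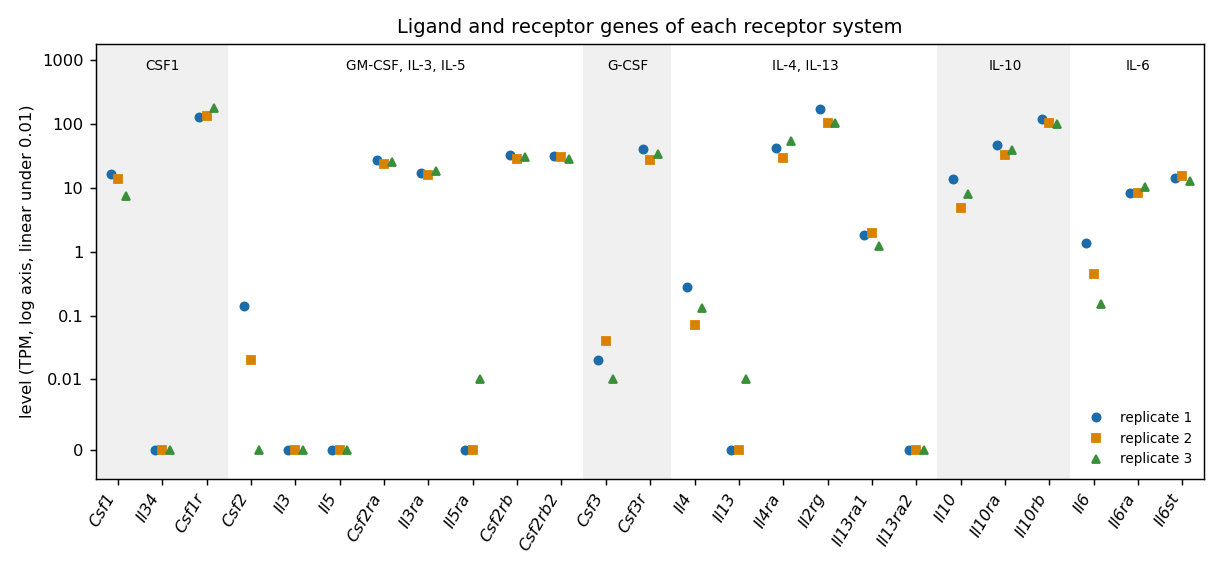
Levels of the receptor chains, their partner chains and their ligands, grouped by receptor system, with 1 point per library. The TPM axis is logarithmic and becomes linear close to 0. The receptor chains among the 10 genes lie well above the ligands Csf2, Csf3, Il3, Il4, Il5 and Il13, which are at or near 0. The partner chain Il5ra and the decoy chain Il13ra2 are at or near 0 as well. Il10rb and Il2rg stand above their partners Il10ra and Il4ra.

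Put in order of mean TPM, the 10 genes form 9 neighbouring pairs, and 4 pairs did not keep one order beyond the spread between libraries. The difference in log2(TPM + 1) was 0.05 ± 0.35 between Il4ra and Il10ra, 0.14 ± 0.17 between Csf3r and Csf2rb, 0.01 ± 0.12 between Csf2rb and Csf2rb2 and 0.37 ± 0.71 between Csf1 and Il6ra. Csf1r stood above Il10rb by 0.45 ± 0.34, with the same sign in every library (0.142, 0.38 and 0.813), and by 0.26 without replicate 3. The widest step lay between Il10rb and Il4ra, at 1.37 ± 0.46, and the next between Csf2ra and Csf1, at 1.02 ± 0.56. Il10ra over Csf3r (0.23 ± 0.03) and Csf2rb2 over Csf2ra (0.24 ± 0.12) were small but had the same sign in every library. Without replicate 2, and likewise without replicate 3, only 2 of the 9 pairs overlapped.

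The signalling and shedding genes around these receptors were nearly all detected. Of 9 JAK and STAT genes, 9 reached 1 TPM in every library, among them Jak1 at 36.2 ± 3.73 and Stat6 at 35.9 ± 3.71 TPM, with Stat5a lowest at 4.55 ± 0.773 TPM. Of 10 feedback and phosphatase genes, 8 did, led by the phosphatase genes Ptpn6 (SHP-1), Inpp5d (SHIP1) and Ptpn1 at 117 ± 21.9, 46.5 ± 3.71 and 32.4 ± 2.22 TPM, with Socs2 lowest at 0.23 ± 0.0173 TPM. Of 12 adaptors and transcriptional regulators of Csf1r, 12 did, led by Tyrobp (DAP12) at 649 ± 115, Grb2 at 149.6 ± 19.0 and Spi1 (PU.1) at 100.4 ± 15.8 TPM, with Ets2 lowest at 3.45 ± 1.61 TPM. The proteases and cofactor that shed cytokine receptors all reached it, with Adam17 at 29.4 ± 3.77, Adam10 at 19.0 ± 1.66, Rhbdf2 (iRhom2, which brings ADAM17 to the surface) at 13.2 ± 4.04 and Bace1 at 3.20 ± 0.160 TPM. Of 11 other ligands, 1 reached 1 TPM in every library. Of 9 genes listed as partner chains, 4 did, which is close to the 41.3% of protein-coding genes. That list includes the decoy chain Il13ra2 and Il20rb, a chain of the IL-20-type receptors. These lists were drawn up from general knowledge of the pathways, but with earlier results of these data known. Of protein-coding genes, 41.3% pass the same threshold.

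The 3 libraries differed from each other more than counting noise allows for 9 of the 10 genes (likelihood-ratio test of edgeR with dispersion 0, Benjamini-Hochberg adjusted p under 0.05), against 71.1% of 12372 genes tested. The 10 genes had 1544 to 46001 expected counts per library, and at 1000 or more counts in every library the share was 89.6%, so 9 of 10 is close to the background. The exception was Csf2rb, with 229.5, 231.1 and 233.8 TMM-scaled CPM and an edgeR adjusted p of 0.476. Csf2rb was called too without the filter on low counts (edgeR adjusted p 6.34e-05) and in the second quantification (edgeR adjusted p 0.0104). Without replicate 3, Csf1 was not called (edgeR adjusted p 0.146). In size, the median SD of log2 TMM-scaled CPM was 0.146 over the 10 genes and 0.149 over the tested genes that reached 1 TPM.

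Csf1 and Il4ra were the most variable. The SD of log2 TMM-scaled CPM was 0.606 for Csf1 and 0.388 for Il4ra, at percentiles 97.6 and 91.5 of the tested genes that reached 1 TPM, whereas Csf2rb, at 0.0137, stood at percentile 0.704. In replicate 3 Csf1 was lowest and Il4ra highest. For the other 7 genes the highest library exceeded the lowest by 1.09 times (Il10rb) to 1.35 times (Csf3r). Which library is highest depends on the scale. As deposited, 7 of the 10 genes had their highest TPM in replicate 1, 0 in replicate 2 and 3 in replicate 3. The median of the 9092 protein-coding genes that reached 1 TPM was also highest in replicate 1, at 9.045, 8.0 and 8.33 TPM. With TPM taken over protein-coding genes only, 1 was highest in replicate 1, 2 in replicate 2 and 7 in replicate 3. By TMM-scaled CPM, 4, 2 and 4 genes were highest in replicates 1, 2 and 3. The shares of all genes highest in each library are not given here, so these counts have no background. Csf1 was highest in replicate 1 and Il4ra in replicate 3 on both TPM scales.

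In 8 of the 10 genes, the same transcript held 50% or more of the gene in every library, against 76.6% of protein-coding genes with at least 2 transcripts. Il10rb-201 held 97.3%, 97.6% and 97.5%, Il10ra-201 held 96.4%, 97.0% and 95.2%, Csf2rb2-201 held 95.4%, 94.4% and 96.0%, and Csf2rb-201 held 94.8%, 98.3% and 95.6%. For Csf2rb the second quantification gave Csf2rb-201 68.1%, 64.5% and 87.0%, and Csf2rb-202 30.2% in replicate 2 against 2.9% and 1.6% in replicates 1 and 3. The exceptions were Il4ra, described above, and Csf1r. In the second quantification 9 of the 10 genes passed, against 71.2%, and the exception was Csf3r.

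Csf1r-201 and Csf1r-202 have coding sequences of the same length, 2934 nt with the stop codon. They differ in their 5′ untranslated regions, of 282 and 98 nt, and in their 3′ untranslated regions, of 654 and 1669 nt. Csf1r-201 held 52.3%, 16.5% and 28.9% and Csf1r-202 held 47.3%, 76.1% and 44.4% in replicates 1, 2 and 3. In the second quantification Csf1r-201 held 70.7%, 61.3% and 55.8% and Csf1r-202 held 6.0%, 6.2% and 4.6%, so Csf1r-201 led in replicate 1 of both estimates, and the leading transcript differed between them in replicates 2 and 3. Csf1r-205, a short transcript, held 0%, 7.29% and 26.6%, with 0, 152 and 766 expected counts. In the second quantification it held 22.1%, 32.4% and 39.3%. Csf1r-202 shares 18% of its 31-base words with Hmgxb3, a gene on the opposite strand at 3.78, 3.18 and 3.66 TPM. The strand setting of the counting is not given in the sources used here, so reads of the overlap cannot be told apart.

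In Csf3r, Csf3r-201 held 72.4%, 65.8% and 71.1%, and Csf3r-202 held 16.5%, 17.4% and 14.3%. Their coding sequences have the same length, 2514 nt, and their 5′ untranslated regions measure 45 and 365 nt. The second quantification gave 46.9%, 49.0% and 54.2% to Csf3r-201 and 36.8%, 39.0% and 35% to Csf3r-202. It gave Csf3r-204 16.3%, 11.9% and 10.9%, against 5.73%, 5.14% and 3.07% in the first. Il6ra-201 and Il6ra-202, whose coding sequences differ by 3 nt and whose 3′ untranslated regions measure 1837 and 7102 nt, held 61.01%, 61.95% and 61.79% (Il6ra-201) and 38.99%, 38.05% and 38.21% (Il6ra-202) of the gene. Their shares varied by less than 1 percentage point between libraries, and the second quantification gave Il6ra-201 74.5%, 76.6% and 75%. Csf2ra-201 held 58.7%, 74.7% and 77.3%, Csf2ra-204 held 21.01%, 12.9% and 6.71%, on only 30, 28 and 16 expected counts, and Csf2ra-205 held 14.5%, 10.3% and 11.2%.

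**Figure D4:**
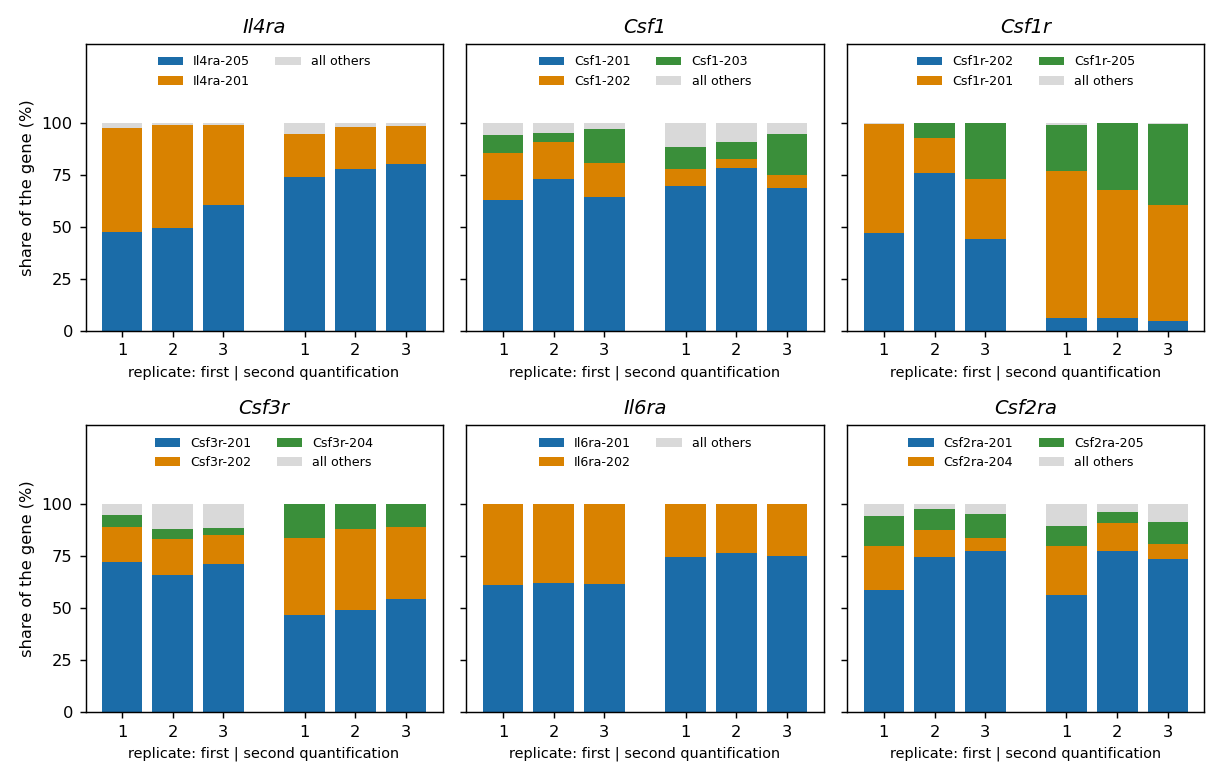
Percent of each gene held by its transcripts in replicates 1, 2 and 3, in the first and in the second quantification. The genes drawn are Il4ra, Csf1, Csf1r, Csf3r, Il6ra and Csf2ra, each with more than 1 transcript at 10% or more. Csf2rb is not drawn, although Csf2rb-202 averaged 11.6% of it in the second quantification. Il4ra-205 holds about as much of Il4ra as Il4ra-201 in the first quantification and more in the second, and the transcripts of Csf1r are divided differently by the 2 estimates.

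Transcripts annotated as other than protein-coding took 53.3 ± 6.66% of Il4ra, 29.8 ± 10.1% of Csf2ra and 14.2 ± 2.88% of Csf3r, against a median of 3.07% over 8438 genes. They took 3.59% of Il10ra, 2.6% of Csf2rb, 2.51% of Il10rb, 2.09% of Csf2rb2, 0.433% of Csf1 and 0.18% of Csf1r on average. Il6ra has only protein-coding transcripts annotated, so its share is 0% by annotation. Retained-intron transcripts, which keep an intron that is normally removed before export from the nucleus, were annotated and above 0 for 6 of the 10 genes. Csf2ra had the largest share, 20.3%, 12.4% and 16.0% in replicates 1, 2 and 3, and Csf2rb had 4.46%, 0.70% and 2.64%. Il4ra had 1.61%, 0.38% and 0.63%, and Csf1, Il10rb and Csf1r were below 1% in every library. In 6 of 6 the share was highest in replicate 1 and lowest in replicate 2, an order found in 51.7% of 5437 protein-coding genes with such a transcript. It was noticed after the values had been seen. The medians over those 5437 genes were 3.23%, 0.79% and 1.86%, in the same order. The nuclear RNA Malat1 stood at 612.4, 156.1 and 637.4 TPM and the nuclear RNA Neat1 at 24.8, 12.7 and 52.4 TPM, both lowest in replicate 2, and their part in the order was not tested.

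**Figure D5:**
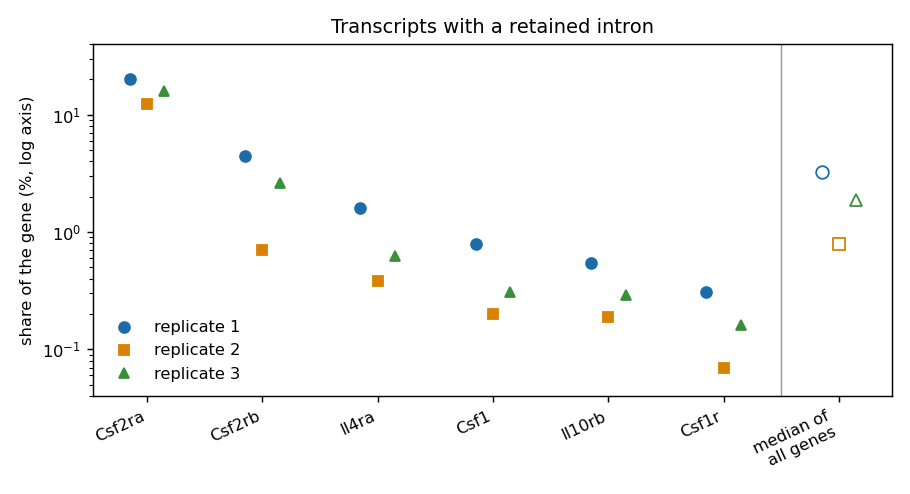
Percent of each gene held by retained-intron transcripts in each library, for the 6 genes with such a transcript and for the median of 5437 protein-coding genes, on a log axis. In each of the 6 genes replicate 1 is highest and replicate 2 lowest, as in the median of all genes.

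The authors' 2 quantifications of the same reads gave close levels for most of the 10 genes. With TPM taken over protein-coding genes only, 0 of the 10 were apart by 2-fold or more, one way, in all 3 libraries, against 16.0% of 13904 genes. For 7 of the genes the first estimate was 0.939 to 1.07 times the second in every library. Csf1r was lower in the first, at 0.774, 0.686 and 0.785 times the second, as were Csf2rb, at 0.777, 0.698 and 0.931 times, and Il6ra, at 0.87, 0.853 and 0.848 times. As deposited, all 10 genes were lower in the second quantification in every library, where protein-coding genes held 16.4%, 15.2% and 12.1% of TPM. Csf1r then averaged 97.8 ± 12.3, Il10rb 53.6 ± 7.67 and Il6ra 5.25 ± 0.338 TPM. The order of the 10 genes differed in 1 place: Csf2rb stood between Il4ra and Il10ra.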

How the data were processed

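Total RNA of the cytosolic fraction was sequenced in 3 libraries of 1 group, from 1 µg of RNA with fragments of 250 to 400 nt, per the labels. A gene table and a transcript table per library follow the layout of RSEM, and another transcript table that of kallisto, per the file headers. The build is mm10 and the annotation GENCODE M21, per the text deposited with the files. Which programs and strand setting were used is not given in the sources at hand. The authors deposited expected counts and TPM per gene, and per transcript TPM and its percent of the gene (called share here). The authors' second tables hold estimated counts and TPM of each transcript, added up by gene here.

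Rounded expected counts were tested with edgeR 4.0.16 in R 4.3.3 (TMM factors, filterByExpr, a library term, dispersion 0), which tests departure from counting noise only. The test was checked on simulated counts. Neighbours were compared as differences of log2(TPM + 1) within libraries. A gene at 0 counts was given the limit of 3 counts in TPM, which covers counting error only. Sequences and 31-base words came from the GENCODE M21 transcripts. Other steps used Python 3.11.15 with pandas 2.3.3 and numpy 2.4.6.

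All 10 genes are named. From each other list the 3 highest genes and the lowest by mean TPM are named, with the ligands, partner chains and shedding proteases. One gene that this rule takes is not reported here. Transcripts at a mean of 10% or more in either quantification are named. The members and lists were chosen with earlier results of these data known. Alternatives were another scaling (DESeq2 1.42.0 size factors), filter, threshold, pseudocount and quantification, and leaving out each library.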

Additional observations from a re-analysis of the deposited data

How the results depend on the processing

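Without 1 library at a time, the number of neighbouring pairs that overlap was 2 to 4, against 4 of 9 with all libraries: it was 2 without replicate 2 and 2 without replicate 3. The cause was not tested. With a threshold of 80% in place of 50%, 4 of the 10 genes had 1 leading transcript in every library, against 8. The calls against counting noise were 9 or 10 under another scaling, filter or quantification and 8 to 9 without 1 library. At a threshold of 10 TPM, 8 genes passed. The shares of all genes that pass at 10 TPM and at 80% are not given here, so these 2 counts have no background. The 2-fold count stayed at 0 under each alternative, and the leading-transcript count was 9 in the second quantification. Leaving out 1 library moved the mean level of a gene by at most 1.21 times, and 0 of 30 such values moved by over 1.5 times. The mean TPM of all 10 genes moved by more than their SD with the second quantification and with TPM over protein-coding genes. In the rescaling to protein-coding genes this follows from the smaller set of RNAs summed, and in the second quantification the cause was not tested. A lowest retained-intron share in replicate 2 was found for 6 of 6 genes in the second quantification and for 5 of 6 by CPM of expected counts. These 2 alternatives were chosen after seeing the data. In the first quantification, 65.8% of 5437 protein-coding genes with such a transcript had their lowest share in replicate 2. No paired analysis was possible because the libraries form 1 group.

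Depth limits the low genes: ligands with 1 to 5 expected counts have no interpretable order between libraries, and a share of transcripts that differ in few bases is an estimate, given here with no error beyond the spread between libraries.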

Other observations

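Genes that IL-10 and IL-4 are known to induce in macrophages were listed from general knowledge. Of the 7 IL-10 targets, one of which is Il4ra itself, 7 reached 1 TPM in every library, led by Il1rn, the IL-1 receptor antagonist, at 45.8 ± 17 TPM, by Il4ra, and by the repressor gene Etv3 at 40.1 ± 8.13 TPM. Nfil3 was lowest at 3.41 ± 0.434 TPM. Of the 12 IL-4 targets, 2 did, against 41.3% of protein-coding genes. The highest were the mannose receptor gene Mrc1 at 19.8 ± 4.21, Chil3 at 2.43 ± 0.875 and Ccl22 at 1.32 ± 0.498 TPM, and the IL-4 markers Retnla and Ccl17 had 0 counts in every library, which allows up to 0.164 and 0.213 TPM. Without an untreated library, none of these levels can be assigned to a cytokine.

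Socs3, the feedback inhibitor that IL-6 and IL-10 both induce, had 23.9, 8.56 and 8.06 TPM in replicates 1, 2 and 3. Il6 had 1.35, 0.44 and 0.15 TPM and Il10 had 13.9, 4.83 and 8.11 TPM. The 3 genes were highest in replicate 1, also with TPM taken over protein-coding genes only. Of the 10 receptor and ligand genes, 7 were highest there in TPM as deposited. With TPM over protein-coding genes 1 was, and by TMM-scaled CPM 4 were. The shares of all genes highest in replicate 1 are not given here, so these counts have no background. A link between these genes and Socs3, Il6 or Il10 was not tested. Socs3 was chosen after its values were seen.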
